A study of Drosophila melanogaster with 24 samples.

Results

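The mitochondrial ribosomal protein genes of Drosophila melanogaster were followed in the larval fat body of tumour-bearing and control larvae. Members were all rows whose FlyBase identifier carries a symbol starting with mRpL (large subunit) or mRpS (small subunit). There were 72 members among 17698 rows of the count table, 47 of them mRpL and 25 mRpS, out of 73 such symbols in the name table. The remaining symbol, mRpS5, was not analysed here. In all 71 members passed the filter on low counts, and mRpL53 did not: it had 0 counts in every library.

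RNA was sequenced from fat bodies, 50 larvae pooled per library and 4 libraries per group. In the 4 tumour groups the driver C855a-Gal4, which is active in epithelia, expressed a hairpin against the cell polarity gene scrib (C855a-Gal4/UAS-scrib-RNAi), and wing discs became tumours. The fat bodies of these larvae were taken 4, 5, 8 and 11 days after egg laying. In the 2 control groups the same driver expressed a control hairpin, and fat bodies were taken at days 4 and 5. Egg laying was limited to 3 hours. Per the labels, larvae with these tumours fail to pupate. Controls older than day 5 are not used here, so age and tumour cannot be told apart at days 8 and 11. Since nothing in the labels ties the pools to separate cultures, p-values reflect only how much these pools varied.

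The mitochondrial ribosome translates the few messages of the mitochondrial genome, which encode core subunits of the respiratory chain and of ATP synthase. Its proteins are encoded in the nucleus, made in the cytosol and imported, and they assemble with ribosomal RNAs made inside the mitochondrion. Some have bacterial counterparts, and others are found only in mitochondria. The larval fat body grows, stores fat and glycogen and, late in larval life, secretes and then takes up storage proteins.

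Total counts were 16074877 to 23352151 per library, and the members took 6272 to 20592 of them. Levels are CPM, the counts of a gene in proportion to the library size, which was scaled by TMM (a trimmed mean of ratios between libraries). The TMM factors ran from 0.686 at tumour day 4 to 1.502 at tumour day 11, so the choice of scaling bears on comparisons across tumour ages. All 9 fat body markers were read in every library, and their summed level was 553866 to 649094 CPM at tumour day 4 and 58282 to 79827 CPM at tumour day 11. Most of that sum is from the Lsp1 genes, and 2 markers of the list went the other way, with group means of 4150 and 5056 CPM for Lsp2 and 363 and 6497 CPM for Fbp1. The 5 haemocyte markers summed to 54.5 to 105 CPM at tumour day 4 and 540 to 753 CPM at day 11. In 1 library, replicate 2 of control day 4, the 7 salivary gland markers summed to 1426 CPM, against 3.91 to 5.29 CPM in the other control libraries of that day, and the storage protein receptor gene Fbp1 was at 2268 CPM against 41303 to 74777 CPM. Replicate 3 of control day 5 had 1486 CPM of salivary gland markers, and replicate 1 of tumour day 5 had 95.0 CPM of the 7 testis markers. In pooled tissue, fewer cells of a type and less RNA per cell cannot be told apart.

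The members are short genes of low to moderate level. Their exons covered a median of 783 bases and their proteins had a median of 192 amino acids, against 2121 bases and 468 amino acids over 8346 coding genes tested (BDGP6.54 annotation). In 51 of the 71 tested members, 71.8%, a coding gene on the other strand started within 500 bases upstream, against 33.3% of the coding genes tested. They lie on all the large chromosome arms, with 21 on 3R, 16 on 3L, 12 on 2L, 12 on 2R and 11 on X. The use of strand in counting is not given in the sources used here, so 7 members whose exons overlap other genes over at least 20% of their length are uncertain: mRpS24, mRpS21, mRpS14, mRpL13, mRpS9, mRpL17 and mRpL48. The exons of mRpL53 lie wholly within those of another gene.

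Per kilobase of exon, the levels of single members spread over more than 1 order of magnitude. The mean of the 6 groups was 38.04 CPM per kilobase for mRpL28 (2L, 4973976 to 4975316), the highest, followed by mRpS9, mRpL30 and mRpL22 (17.8 CPM per kilobase). At the low end were mRpS24 with 2.99 CPM per kilobase, mRpL11 with 3.42, mRpL21 with 3.44 and mRpL18 with 3.61. Not scaled for length, the levels ran from 1.35 CPM for mRpL34 to 44.5 CPM for mRpL28. Raw counts of mRpL34 were as low as 6 in a library and those of mRpL28 at least 453, so folds of mRpL34 carry more counting error.

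The members as a whole were highest at day 4 and lower at every later age. Their summed level was 745, 895, 717 and 715 CPM in the libraries of control day 4 and 413, 429, 510 and 443 CPM at control day 5. With tumours it was 746, 1214, 1152 and 831 CPM at day 4 and 539, 507, 446 and 468 CPM at day 5. Later on, the sum was 421, 412, 400 and 352 CPM at tumour day 8, and 379, 401, 395 and 404 CPM at tumour day 11. With TMM all day 4 libraries lay above all libraries of later ages, while the day 4 groups overlapped each other, as did the day 5 groups. With CPM taken from unscaled library totals, the groups' means were 618 ± 76.1 (SD, n = 4) at control day 4, 398 ± 48.5 at control day 5, 719 ± 199 at tumour day 4, 471 ± 20.4 at tumour day 5, 537 ± 32.3 at tumour day 8 and 584 ± 19.0 at tumour day 11. On that scale the tumour libraries of days 8 and 11 were above those of day 5. The lowest day 4 libraries, at 533, 559, 571 and 578, lay within the range of days 8 and 11 (498 to 607). The next, replicate 4 of control day 4 at 608, was just above it.

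**Figure D1:**
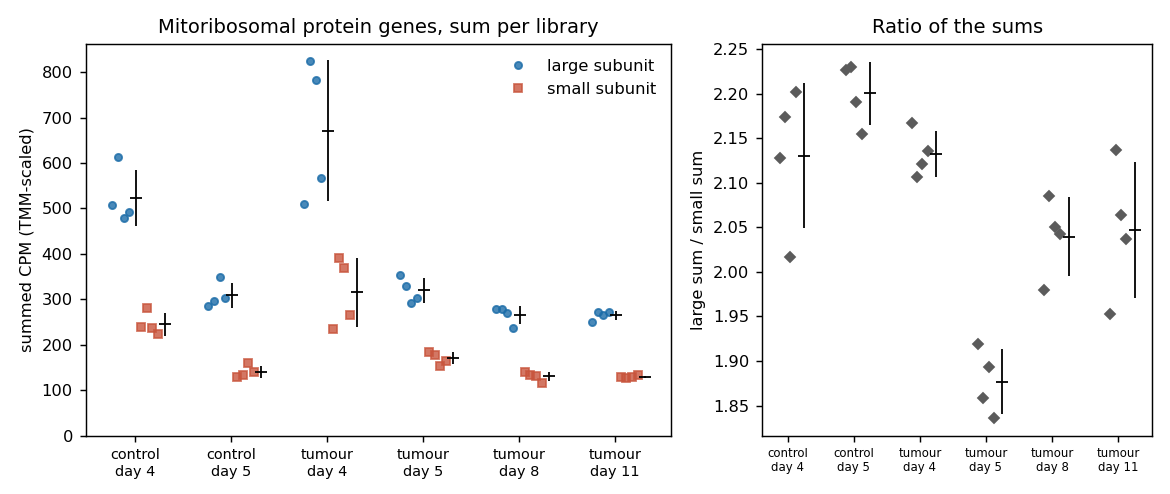
Left, summed CPM of the mRpL (circles) and mRpS (squares) genes in each library by group. Right, their ratio, on an axis that does not start at 0. Bars are mean and SD of 4 libraries. Day 4 libraries are highest in the left panel, and the ratio is lowest at tumour day 5, at 1.84 to 1.92. The order of tumour days 5, 8 and 11 in the left panel turns around without TMM scaling.

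The spread within tumour day 4 was wide and shared by the members. Replicates 2 and 3 held 1214 and 1152 CPM, and replicates 1 and 4 held 746 and 831 CPM. The storage protein gene Lsp2 was at 2972 and 3165 CPM in replicates 2 and 3, and at 5592 and 4869 CPM in replicates 1 and 4. Among the control libraries of day 4, replicate 2 had the highest member sum (895 CPM) and the lowest Lsp2 (5595 CPM, against 7386 to 8265 CPM). The chaperonin gene Hsp60A was highest in the same libraries, at 374 and 257 CPM in tumour replicates 2 and 3 and 215 CPM in control replicate 2. Whether these measures have a part in the members' levels was not tested.

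**Figure D2:**
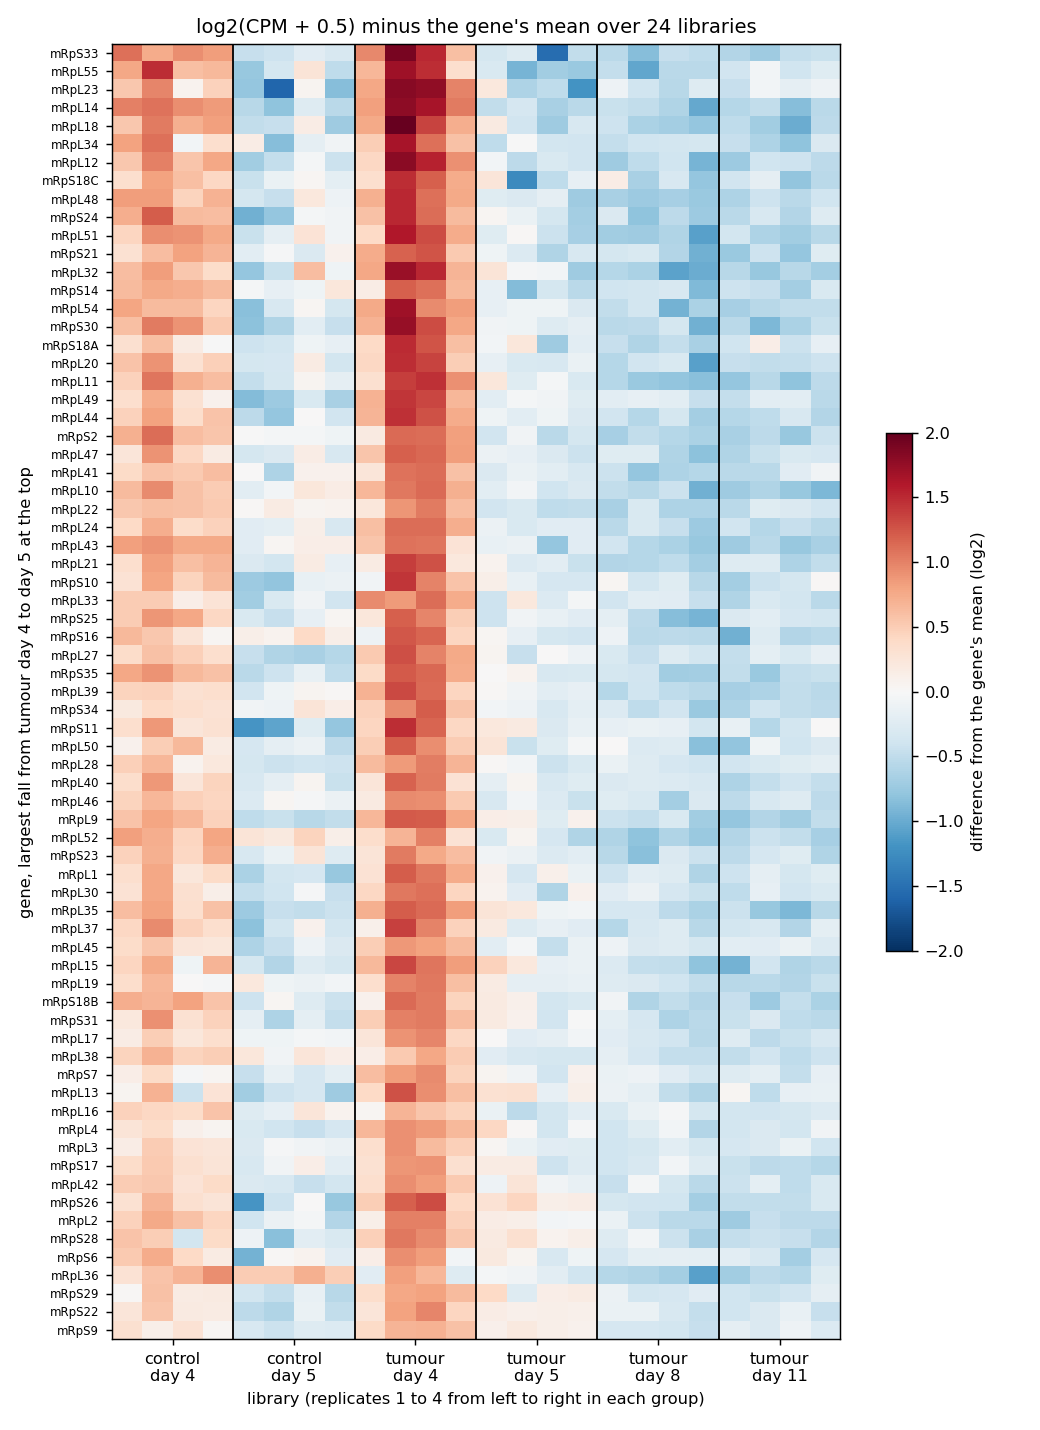
Each row is a tested member and each column a library. Colour is log2(CPM + 0.5) minus the gene's mean over 24 libraries, with the scale ending at 2 and -2. Rows are ordered by the change from tumour day 4 to day 5, from mRpS33 (-2.25) to mRpS9 (-0.47). Replicates 2 and 3 of tumour day 4 are redder than replicates 1 and 4 in most rows, and mRpL36 is above its own mean in all 4 libraries of control day 5. The colours of tumour days 8 and 11 relative to day 5 depend on the scaling.

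From day 4 to day 5 nearly every member fell, in controls and with tumours alike. Each change is given as a log2 fold change with its SE, tested by edgeR's quasi-likelihood method, and members with a Benjamini-Hochberg adjusted p below 0.05 over 8707 genes are named called. In controls 67 of 71 members were called lower and 0 higher, where 29.2% of all genes tested were lower and 25.8% higher. The members' median was -0.84, against -0.09 for all genes. With tumours 69 of 71 were called lower and 0 higher, where 24.5% of all genes were lower and 19.6% higher, and the medians were -1.08 and 0.02. The single members' mean at tumour day 5 was between 21.1% (mRpS33) and 72.2% (mRpS9) of that at tumour day 4, with a median of 47.4%. In controls it was between 32.9% (mRpL14) and 94.3% (mRpL36), with a median of 55.9%. Scaling by library size alone moves the median of all genes in the tumour comparison from 0.02 to 0.43. The members' median was then -0.68, which lies 1.11 below that of all genes, against 1.10 below it with TMM. Under that scaling 56 members were called lower in controls and 57 with tumours, where 1947 and 1005 of all 8707 genes were lower.

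Among large subunit members with bacterial counterparts, mRpL14 fell most in controls. Its bacterial counterpart lies at the face that meets the small subunit. mRpL14 (X, 2343997 to 2344649) was at 12.9, 13.7, 12.3 and 11.6 CPM at control day 4 and 4.06, 3.35, 5.12 and 4.10 CPM at control day 5. With tumours it was at 11.4, 22.6, 20.6 and 13.3 CPM at day 4 and 4.26, 4.83, 3.78 and 4.10 CPM at day 5. The ages did not overlap in either series, and the changes were -1.60 ± 0.19 (edgeR, adjusted p = 4.96e-07) and -2.001 ± 0.19 (adjusted p = 3.66e-08). mRpL23, whose bacterial counterpart sits at the exit of the polypeptide tunnel, was at 4.91, 10.6, 10.3 and 5.75 CPM at tumour day 4 and 3.14, 1.54, 1.71 and 0.874 CPM at tumour day 5. Every day 4 value was above every day 5 value, and the change was -2.11 ± 0.39 (edgeR, adjusted p = 0.000136), with a wider error than that of mRpL14. mRpL18 fell by 1.85 with tumours, mRpL11 of the factor-binding region by 1.34, and mRpL22, also near the tunnel, by 1.17. mRpL28, the most abundant member, was called lower by 0.78 in controls and 1.00 with tumours.

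mRpL36 had the smallest fall of the members in controls, though not with tumours. Its bacterial counterpart is a small zinc-binding protein that joins the large subunit late in assembly. In controls it was at 5.13, 6.30, 6.86 and 8.29 CPM at day 4 and 6.06, 6.03, 7.03 and 5.95 CPM at day 5, overlapping ranges with a change of -0.09 ± 0.22 (edgeR, adjusted p = 0.771). With tumours it was at 3.44, 7.61, 6.75 and 3.33 CPM at day 4 and 3.95, 3.89, 3.47 and 3.00 CPM at day 5. These ranges also overlapped, and the change of -0.57 ± 0.23 missed the threshold (adjusted p = 0.0501). The other members not called in controls were mRpL19, mRpS34 and mRpS16, and with tumours mRpS6 (adjusted p = 0.0512).

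Of the large subunit members found only in mitochondria, mRpL55 changed most with tumours. It was at 3.44, 7.55, 6.44 and 2.65 CPM at tumour day 4 and 1.52, 0.806, 1.04 and 0.983 CPM at day 5, without overlap, a change of -2.20 ± 0.35 (edgeR, adjusted p = 2.496e-05). In controls it fell by 1.45. mRpL45, which in mammals lies near the tunnel exit at the inner membrane, fell from 22.2, 28.9, 27.6 and 24.6 CPM to 13.5, 15.2, 11.1 and 14.3 CPM with tumours. Its day 4 and day 5 ranges were apart, and the change was -0.93 ± 0.12 (adjusted p = 1.51e-06). mRpL39, mRpL49, mRpL38 and mRpL52 were called lower by 1.08, 1.29, 0.84 and 0.98 with tumours.

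In the small subunit, with tumours, the change was lowest for mRpS33 and nearest to 0 for mRpS9. mRpS33 (3R, 16436045 to 16436597), found only in mitochondria, was at 4.91, 9.79, 7.37 and 3.71 CPM at tumour day 4 and 1.67, 1.81, 0.467 and 1.48 CPM at day 5, without overlap. The change was -2.25 ± 0.31 (edgeR, adjusted p = 4.63e-06), against -1.49 ± 0.31 in controls (adjusted p = 0.000311). mRpS9 (3R, 7889277 to 7902667), whose bacterial counterpart reaches the tRNA in the peptidyl site, was at 36.9, 45.7, 46.2 and 42.9 CPM at tumour day 4 and 30.4, 32.6, 31.0 and 30.1 CPM at day 5. The ages did not overlap, and the change of -0.47 ± 0.08 was called (adjusted p = 4.03e-05). Its exons overlap another gene, so part of these counts may belong to that gene. mRpS29, a GTP-binding protein known as DAP3 in mammals, and mRpS22 were the next smallest called falls with tumours, at -0.54 ± 0.14 each. The calls of mRpS9, mRpS29 and mRpS22 ended with library size scaling alone. In controls the lowest change of the small subunit was that of mRpS24, a relative of bacterial S3. It was at 2.83, 4.18, 2.65 and 2.61 CPM at control day 4 and 0.545, 0.685, 1.46 and 1.43 CPM at control day 5, without overlap. Its change was -1.56 ± 0.33 (edgeR, adjusted p = 0.000403), and 55.3% of its exon length overlaps other genes. The smallest called falls in controls were those of mRpS7 (-0.44), mRpL17 (-0.41) and mRpL38 (-0.39), which ended with library size scaling alone. The calls of mRpS7 and mRpL17 also ended without the 3 libraries with the most salivary gland or testis RNA, and that of mRpL17 with DESeq2, without the filter and without any of 5 of the 8 libraries. mRpS11, whose bacterial counterpart sits on the platform where the message leaves, fell by 1.44 in controls and 1.05 with tumours.

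The members that fell most in controls tended to fall most with tumours. Both comparisons use separate libraries, and across the 71 members the changes had a Spearman rho of 0.516 and a Pearson r of 0.626, against 0.421 and 0.367 over all 8707 genes. These are descriptions across genes, which share libraries, length and level. With the 46 mRpL and 25 mRpS genes set apart, the medians were -0.83 and -0.84 in controls and -1.09 and -1.06 with tumours. For the 41 members numbered up to L36 or S21, the numbers shared with bacteria, and the 30 with higher numbers they were -0.84 and -0.83 in controls and -1.10 and -1.07 with tumours. The split is by number, and a few members with higher numbers, mRpS24, mRpS28 and mRpL47 among them, are also related to bacterial proteins.

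**Figure D3:**
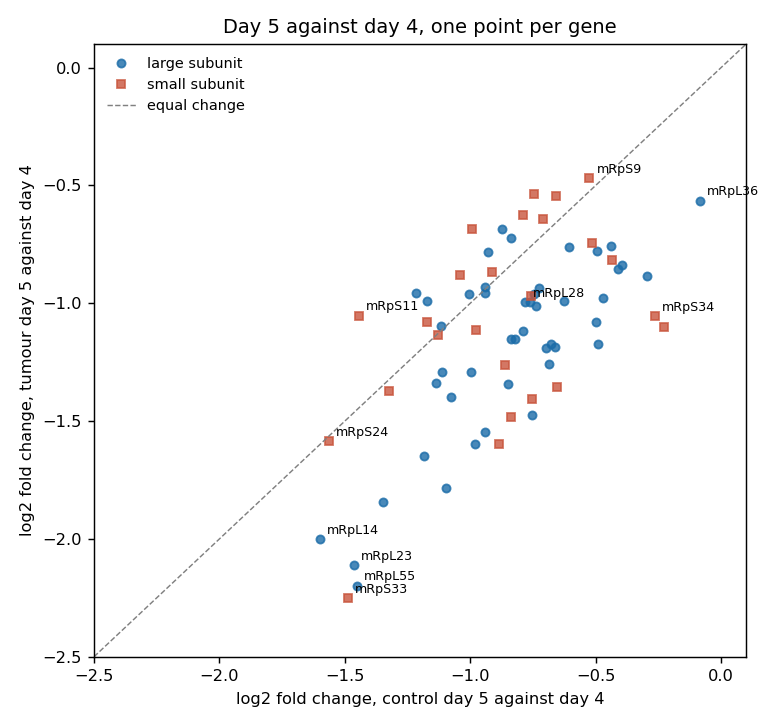
Change from day 4 to day 5 in controls (horizontal axis) and with tumours (vertical axis), both log2 fold changes, 1 point per tested member. The dashed line marks equal change. All points lie below 0 on both axes, and mRpL36 is farthest to the right.

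Shorter members had lower changes with tumours. Split by exon length, the 24 members of up to 705 bases had a median of -1.35, the 23 up to 922 bases -1.06 and the 24 longer ones -0.93. Coding genes of the same lengths had medians of -0.47, -0.38 and -0.20, so length went with the change outside the members as well. Exon length had a Spearman rho of 0.413 with the change over the 71 members and 0.331 over 8346 coding genes. In controls the rho was 0.181 over the members and 0.159 over the coding genes. Longer members also had higher CPM (rho 0.748), and mean log2 CPM had a rho of 0.516 with the tumour change. The part of length, level or fragment size in the members' changes was not tested.

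At day 4, members were higher with tumours than in controls, by less than they fell with age. Of 71 members 20 were called higher and 0 lower, where 14.6% of all genes were higher and 10.5% lower. The members' median was 0.40, against 0.01 for all genes. The median was positive in each setting tried, from 0.26 to 0.52 with 1 library left out (0.26 without tumour replicate 2), but the number of calls moved. It was 3 with only the day 4 libraries in the model, 4 with library size scaling alone, and 31 without the 3 libraries with the most salivary gland or testis RNA. It was 34 without replicate 1 of tumour day 4, 8 without replicate 2 or 3 of tumour day 4 or replicate 4 of control day 4, 9 without control replicate 3 and 10 without control replicate 1. With library size scaling alone 807 of all 8707 genes were higher and 1458 lower. The members' share called higher was then below that of all genes, while their median was 0.25 against -0.15. Shares of all genes are not given here for the other recounts, so their calls show no excess over all genes.

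The called members came from both subunits, 15 mRpL and 5 mRpS. mRpL49 (X, 12907105 to 12907942), found only in mitochondria, was at 6.97, 9.42, 6.78 and 5.74 CPM in controls and 9.05, 15.3, 14.4 and 8.86 CPM with tumours. Control replicate 2 lay within the tumour range, and the change was 0.72 ± 0.18 (edgeR, adjusted p = 0.0059). Its call was kept with any 1 library left out and ended with only the groups compared in the model. mRpS7 of the small subunit head was at 15.2, 18.1, 13.6 and 14.2 CPM in controls and 21.4, 25.1, 27.1 and 19.1 CPM with tumours, without overlap, a change of 0.60 ± 0.13 (adjusted p = 0.0012). mRpS9 was at 35.6, 30.8, 34.6 and 29.3 CPM in controls and 36.9, 45.7, 46.2 and 42.9 CPM with tumours, without overlap (0.40 ± 0.08, adjusted p = 0.000663). Also without overlap were the values of mRpS34, at 7.51, 8.75, 8.34 and 8.03 CPM in controls and 9.12, 13.0, 15.6 and 9.76 CPM with tumours (0.54 ± 0.15, adjusted p = 0.0093). The exons of mRpS9 overlap other genes, so its values are uncertain.

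Other calls ended when single libraries of either group were left out. mRpS18A, a relative of bacterial S18 whose mammalian counterpart sits in the large subunit, was at 2.83, 3.58, 2.495 and 2.17 CPM in controls and 3.02, 7.02, 5.88 and 3.56 CPM with tumours. Only replicates 2 and 3 were above all controls, and the change was 0.82 ± 0.27 (edgeR, adjusted p = 0.0287). The calls of mRpS18A, mRpL13 (0.72 ± 0.26), mRpL3 (0.31 ± 0.11), mRpL45 (0.36 ± 0.12) and mRpL9 (0.38 ± 0.13) each ended without tumour replicate 2 or 3 and without control replicate 1, 3 or 4. The exons of mRpL13 overlap other genes.

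**Figure D4:**
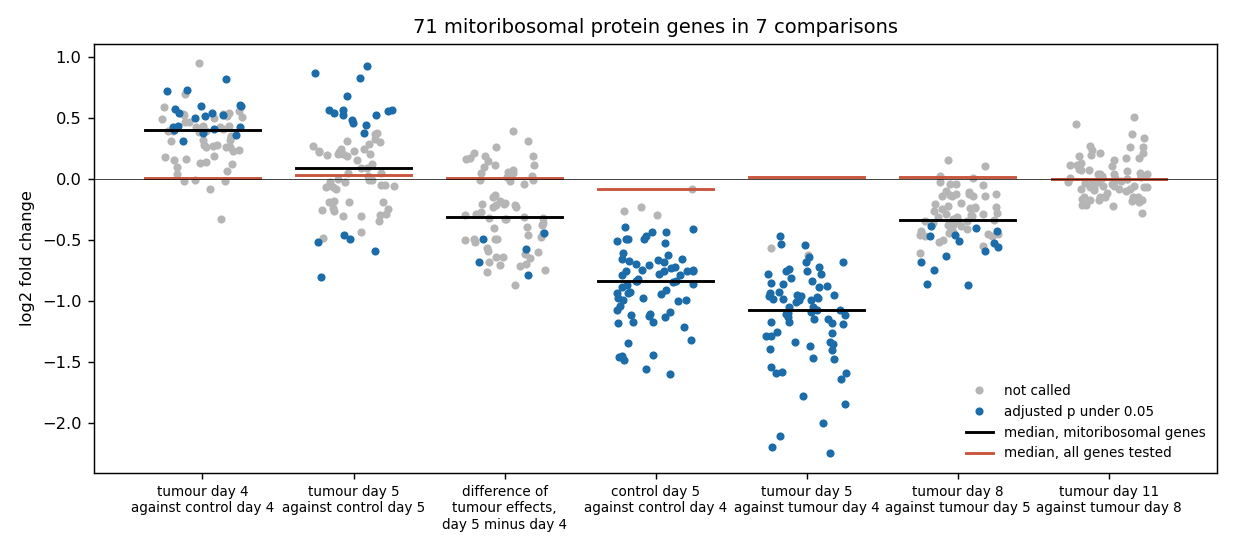
Log2 fold change of each of the 71 tested members in 7 comparisons, 1 point per gene, blue where the adjusted p was under 0.05. Black lines are the members' medians and red lines those of all 8707 genes. The members' points lie below 0 in both day 5 against day 4 comparisons. In the comparison of tumour day 8 against day 5 the members' median of -0.34 becomes 0.15 under library size scaling alone. The median of all genes there becomes 0.50.

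At day 5 the members moved in both directions with tumours. Of 71 members 15 were called higher and 5 lower, where 26.7% of all genes were higher and 28.2% lower. The members' share of called genes was thus below that of all genes in each direction. The median was 0.09, against 0.03 for all genes. With upper quartile scaling 24 were higher and 3 lower, with a median of 0.28.

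The members higher with tumours at day 5 were 9 mRpL and 6 mRpS genes. mRpS11 was at 1.15, 1.30, 2.64 and 1.67 CPM in controls and 3.801, 3.69, 2.54 and 2.84 CPM with tumours. Only control replicate 3 reached into the tumour range, and the change was 0.92 ± 0.28 (edgeR, adjusted p = 0.008). mRpS26 was at 2.85, 5.20, 7.09 and 3.98 CPM in controls and 8.72, 9.67, 7.73 and 7.92 CPM with tumours, without overlap (0.83 ± 0.22, adjusted p = 0.00363). mRpS9 was at 22.6, 20.9, 23.6 and 23.4 CPM in controls and 30.4, 32.6, 31.0 and 30.1 CPM with tumours, again without overlap (0.45 ± 0.08, adjusted p = 4.08e-05). In the large subunit mRpL9, whose bacterial counterpart projects near the L1 stalk, was at 7.69, 8.08, 7.43 and 7.73 CPM in controls and 12.2, 12.2, 9.38 and 11.9 CPM with tumours. All tumour values were higher (0.56 ± 0.13, adjusted p = 0.000927). mRpL13 changed by 0.87 ± 0.27 and, in the small subunit, mRpS22 by 0.56 ± 0.14 and mRpS29 by 0.52 ± 0.14. The exons of mRpS9 and mRpL13 overlap other genes, so their values are uncertain.

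The 5 members lower with tumours at day 5 were mRpL36, mRpL52, mRpL22, mRpL38 and mRpS14. mRpL36 was at 6.06, 6.03, 7.03 and 5.95 CPM in controls and 3.95, 3.89, 3.47 and 3.00 CPM with tumours, without overlap (-0.81 ± 0.23, edgeR, adjusted p = 0.00499). mRpL22 was at 16.5, 18.3, 16.8 and 17.1 CPM in controls and 12.3, 13.1, 11.3 and 11.4 CPM with tumours, without overlap (-0.52 ± 0.13, adjusted p = 0.00155). mRpL38 was at 18.0, 14.4, 18.1 and 16.8 CPM in controls and 13.0, 12.1, 11.8 and 11.9 CPM with tumours (-0.47 ± 0.11, adjusted p = 0.00124). Its groups did not overlap either, and these 3 calls were kept with any 1 library left out. mRpL52 was lower by 0.59 ± 0.16, a call lost with upper quartile scaling. The call of mRpS14 (-0.50 ± 0.21, adjusted p = 0.0494) was lost without any of 6 of the 8 libraries, and its exons overlap another gene.

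The tumour effects of days 4 and 5 were compared by their interaction. For 5 of 71 members the effect was lower at day 5 and for 0 it was higher, where 16.8% of all genes were lower and 12.1% higher. The median difference was -0.31, against 0.00 for all genes, and it was -0.05 with library size scaling alone, under which the median of all genes moved by 0.28. mRpS34, a small subunit protein found only in mitochondria, had tumour effects of 0.54 ± 0.15 at day 4 and -0.25 ± 0.15 at day 5, a difference of -0.79 ± 0.21 (edgeR, adjusted p = 0.00658). mRpL22 had effects of 0.16 ± 0.12 and -0.52 ± 0.13, a difference of -0.68 ± 0.18 (adjusted p = 0.00595). Both calls were kept with any 1 library left out. Both ended with library size scaling alone, and that of mRpL22 also with upper quartile scaling. The differences of mRpL39 (-0.58 ± 0.20), mRpL24 (-0.49 ± 0.19) and mRpL38 (-0.44 ± 0.16) each ended without any of 8 to 11 of the 16 libraries. The number called ran from 2 to 13 with 1 library left out: 13 without replicate 1 of tumour day 4, 9 without control day 4 replicate 2, and 2 without tumour day 4 replicate 2 or 3, control day 4 replicate 3 or 4, or tumour day 5 replicate 3 or 4. It was 3 without control day 4 replicate 1 or control day 5 replicate 3 or 4.

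From tumour day 5 to day 8 the direction depended on the scaling. With TMM 14 of 71 members were lower and 0 higher, where 14.0% of all genes were lower and 12.0% higher, and the median was -0.34 against 0.01. With library size alone 0 were lower and 6 higher and the median was 0.15, while the median of all genes was 0.50. Against the median of all genes the members lay at -0.35 with TMM and -0.34 with library size alone. mRpL11 was at 2.58, 1.75, 2.07 and 1.64 CPM at day 5 and 1.28, 1.08, 1.04 and 0.989 CPM at day 8, without overlap (-0.87 ± 0.25, edgeR, adjusted p = 0.0124). mRpL32, whose yeast counterpart is cut by the m-AAA protease before assembly, was at 4.11, 3.29, 3.21 and 1.86 CPM and 2.10, 1.98, 1.34 and 1.45 CPM, with overlap (-0.86 ± 0.31, adjusted p = 0.0442). mRpS26 was at 8.72, 9.67, 7.73 and 7.92 CPM and 5.44, 5.33, 5.22 and 4.22 CPM, without overlap (-0.75 ± 0.22, adjusted p = 0.0154). The call of mRpL11 ended without day 5 replicate 1, that of mRpS26 without day 8 replicate 4, and that of mRpL32 without any of 6 of the 8 libraries. All 3 ended with library size alone, each still below 0, while mRpL39, mRpS29 and mRpS22 (-0.43, -0.40 and -0.39 with TMM) were above 0 there. The number of lower calls was 5 without the 3 libraries with the most salivary gland or testis RNA. It was 4 without tumour day 5 replicate 1 or day 8 replicate 4, 7 without day 5 replicate 2, 8 without day 8 replicate 3 and 9 without day 8 replicate 2.

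Between tumour days 8 and 11 no member was called. The counts were 0 higher and 0 lower by edgeR and by DESeq2, where 1.72% of all genes were higher and 1.62% lower, and at an unadjusted p under 0.05 1 member, mRpS9 (0.17 ± 0.08), was higher and 0 were lower, where 635 of all 8707 genes were higher and 726 lower. The members' median was -0.01, and single members ran from -0.28 to 0.50. Haemocyte markers were higher in every day 11 library than in any day 8 library (540 to 753 against 187 to 311 CPM), and their part was not tested.

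The ratio of the summed levels of mRpL to mRpS genes was lowest at tumour day 5, a result that rests on how members are weighed. The summed CPM of mRpL genes divided by that of mRpS genes was 1.92, 1.86, 1.89 and 1.84 in its 4 libraries, and 1.95 to 2.23 in all other libraries. The group means were 2.13 ± 0.08 (SD, n = 4) at control day 4, 2.20 ± 0.04 at control day 5, 2.13 ± 0.03 at tumour day 4, 1.88 ± 0.04 at tumour day 5, 2.04 ± 0.04 at day 8 and 2.05 ± 0.08 at day 11. This ratio does not depend on library scaling, but it weighs members by level. It also takes the subunit from the symbol alone, so every mRpS gene, mRpS18A and mRpS30 included, was counted as small. Raw counts per library were 22 to 119 for mRpS18A and 152 to 972 for mRpS30. Other assignments of members to subunits were not tried. Without the 7 members with exon overlap, mRpS9 among them, tumour day 5 was at 2.28 to 2.42 and the nearest group, tumour day 8, at 2.42 to 2.58, with overlap, since tumour day 5 replicate 3 was at 2.4221 and tumour day 8 replicate 1 at 2.4187. With every member weighed alike, as the mean log2 CPM of mRpL minus that of mRpS genes, tumour day 5 was at 0.15 to 0.33 and overlapped the other groups, and its mean of 0.2051 was not the lowest, that of tumour day 8 being 0.2044.

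The other genes of mitochondrial translation mostly fell from day 4 to day 5 as well. Of 17 mitochondrial tRNA synthetases tested, which charge tRNAs for the mitochondrial ribosome, 15 fell in controls (median -0.80) and 14 with tumours (-0.71). GluRS-m fell by 1.53 in controls and PheRS-m by 1.30 with tumours. Of 9 mitochondrial translation factors 6 fell in controls and 8 with tumours (medians -0.71 and -0.73), with the elongation factor gene mEFG1 at -0.99 ± 0.38 and -1.08 ± 0.36. Of 15 genes of mitochondrial transcription and RNA handling 9 fell in each series, while 1, the RNA polymerase gene PolrMT, rose with tumours by 0.86 ± 0.33. With library size scaling alone the tumour counts became 4 lower and 1 higher for the synthetases (median -0.32), 2 lower and 1 higher for the translation factors (-0.33) and 1 lower and 2 higher for the RNA genes (-0.08). Of 25 assembly factor names only 2 matched a gene, CG14683 and CG13126, and both fell in controls while neither was called with tumours.

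Nuclear genes of the respiratory chain and ATP synthase had lower medians than the members from day 4 to day 5. This difference between lists was not tested. Of 67 tested, 66 fell in controls (median -1.39) and 66 with tumours (-1.52), and 66 were higher with tumours at day 4 (median 0.61). The largest falls were those of sun, a subunit gene of ATP synthase, at -2.03 ± 0.20 in controls and -2.37 ± 0.20 with tumours. At day 5 45 were higher with tumours and 2 lower (median 0.44), with SdhA of complex II at 1.85 ± 0.16. The 15 rows of the mitochondrial genome, its 13 messages and 2 ribosomal RNAs, were listed at 0 in every library. The mitochondrial ribosome's own templates and ribosomal RNAs can thus not be described here.

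Cytosolic ribosomal protein genes, which serve translation outside the mitochondrion, are given beside the members. Of 82 tested, 80 fell in controls from day 4 to day 5 (median -0.58). With tumours 26 fell and 2 rose (median -0.19), and with library size scaling alone 1 fell and 48 rose (median 0.23). At day 5 81 of 82 were higher with tumours (median 0.81), when 15 of 71 mitochondrial members were. The interaction was positive for 42 cytosolic genes and negative for 0, with a median of 0.38, where it was positive for 0 and negative for 5 of the members. From tumour day 5 to day 8 61 cytosolic and 31 of 67 respiratory chain or ATP synthase genes fell, and 1 and 0 rose. With library size alone 1 and 0 fell and 20 and 5 rose.

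**Figure D5:**
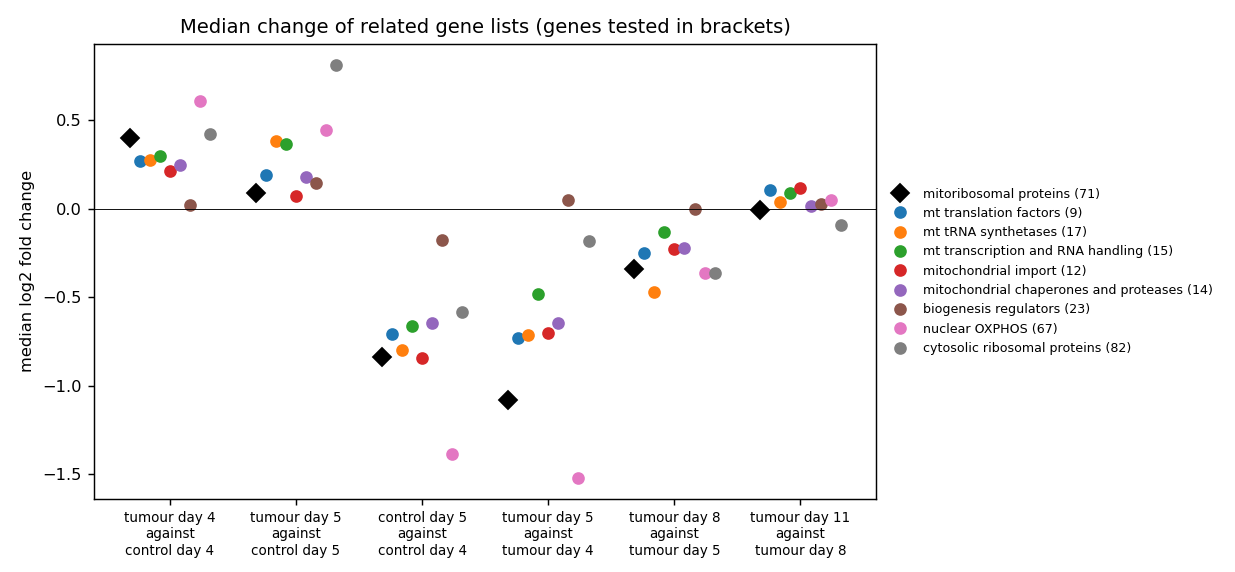
Median log2 fold change of the 71 members (black diamonds) and of related gene lists (circles), with the number of genes tested in brackets. From day 4 to day 5 the members lie between respiratory chain and ATP synthase genes (-1.39 and -1.52) and cytosolic ribosomal proteins (-0.58 and -0.19). The cytosolic median with tumours turns to 0.23, and all medians of tumour day 8 against day 5 turn positive, under library size scaling alone. The medians of all genes in these 2 comparisons are then 0.43 and 0.50.

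Mitochondrial import, chaperone and protease genes also fell with age. Of 12 import genes 11 fell in controls and 10 with tumours (medians -0.85 and -0.70), with Tom7 of the outer membrane channel at -1.67 ± 0.16 with tumours. Of 14 chaperone and protease genes 11 fell in each series and 1 rose, and ClpX, the unfoldase of a matrix protease, rose in controls by 1.75 ± 0.14. With library size scaling alone the tumour counts became 4 lower and 0 higher for import (median -0.31) and 5 lower and 3 higher for chaperones and proteases (-0.25). Of 23 regulators of mitochondrial biogenesis 6 fell and 7 rose in controls, where 29.2% of all genes fell and 25.8% rose. With tumours 4 fell and 4 rose, where the shares of all genes were 24.5% and 19.6%. With TMM the list thus did not stand out from all genes in either series. The tumour split depended on the setting, with 3 lower and 8 higher by RLE scaling and by DESeq2, and 0 lower and 12 higher with library size alone. In controls the list ran from -1.17, that of Myc, a growth regulator, to 1.56. The gene foxo, a target of insulin signalling, rose by 1.12, which was not the largest rise. The interaction was 1.01 for Myc and -1.21 for foxo, and with tumours the list ran from -0.58 to 0.74.

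A pair of mitochondrial ribosomal proteins carry older names and were not members. tko encodes the fly counterpart of S12 at the decoding centre, and its mutants are sensitive to mechanical shock. It was at 7.12, 10.01, 8.11 and 7.97 CPM at control day 4 and 2.79, 3.08, 4.61 and 3.21 CPM at control day 5, without overlap (-1.28 ± 0.23, edgeR, adjusted p = 6.73e-05). With tumours tko fell by 1.43. bonsai, the counterpart of S15, fell by 1.08 in controls and 1.33 with tumours, and at day 4 it was higher with tumours by 0.60 ± 0.21 (adjusted p = 0.0369).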

How the data were processed

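Per the labels and the file, the authors deposited raw counts per gene, whole numbers without normalization, for 24 libraries and 17698 FlyBase identifiers. The submitters' processing notes name STAR 2.5.4a and BDGP6, with no role stated. What counted the reads, with which annotation release and with what strand setting, is not given in the sources used here. The name table gave symbols for 17560 identifiers, and coordinates, exon lengths and overlaps come from the BDGP6.54 annotation.

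Statistics were computed in R 4.3.3 with edgeR 4.0.16. Genes were kept by filterByExpr on the 6 groups (8707 kept), scaled by TMM and fitted with 1 robust quasi-likelihood model of 6 group means over all 24 libraries. The 7 contrasts were adjusted by Benjamini-Hochberg over all genes, and the SE is the size of the log2 fold change over the square root of F. No pair of libraries in a group was a copy: their chi-square statistics were 9.54 to 238 times the degrees of freedom. The biological coefficient of variation was 0.284, and total counts were 16074877 to 23352151 per library.

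Members, related lists and markers were chosen with earlier results of these data known. The rule for names took, in each contrast, called members with the 3 largest and the 3 smallest log2 fold changes with their sign, called members against the direction of most, the 4 highest and 4 lowest levels per length, members under the filter, tko and bonsai, and up to 3 called genes of each related list with the largest change. Values of other members, and of named members in further contrasts, were picked after their values were seen. Alternatives were DESeq2 1.42.0, RLE and upper quartile scaling, scaling without the 20 most abundant genes, testing unfiltered genes, fitting the compared groups by themselves, a replicate block and leaving out each library. Added after seeing the data were library size scaling alone and leaving out the 3 libraries with the most salivary gland or testis RNA. Figures were drawn with matplotlib 3.10.9.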

Additional observations from a re-analysis of the deposited data

Results flagged for a closer look

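In 222 sets of 4 libraries (the summed levels and each named member, by group), 12 had a library far from the other 3, and chance flags about 1 in 20 sets. Replicate 2 of control day 4, the library with 1426 CPM of salivary gland markers, was high in 5 of them: the summed level of the members (895 CPM), mRpS26 (11.7 CPM), mRpS11 (6.30 CPM), mRpS24 (4.18 CPM) and mRpL55 (6.43 CPM). Replicate 3 of control day 5, with 1486 CPM of salivary gland markers, was high for mRpL36 (7.03 CPM) and mRpL30 (12.8 CPM). Whether the other tissue's RNA has a part in these values was not tested. Replicate 3 of tumour day 5 was low for mRpL9 (9.38 CPM). At tumour day 8, replicate 2 was high for mRpL22 (13.1 CPM) and low for mRpL55 (0.707 CPM), and replicate 4 was low for mRpS11 (2.40 CPM). At tumour day 11, replicate 4 was high for mRpS26 (5.62 CPM).

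For 5 of 71 members the tumour effect was lower at day 5 than at day 4 by the interaction test of edgeR, a smaller share than the 16.8% of all genes called lower. The count was 0 to 2 with library size alone, upper quartile scaling, scaling without the 20 most abundant genes or only the groups compared. The differences, day 5 minus day 4, were -0.79 for mRpS34, -0.68 for mRpL22, -0.58 for mRpL39, -0.49 for mRpL24 and -0.44 for mRpL38.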

How the results depend on the processing

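Of 378 counts and medians of the members recomputed under the alternatives, 337 stayed within 1.5 times the count or within the spread of the libraries, 40 moved further and 1 median turned around. For tumour day 4 against control day 4 the 20 higher calls became 3 with only the groups compared, 4 with library size alone, 31 without the 3 libraries with the most salivary gland or testis RNA, and 8 to 34 with 1 library left out. With library size alone 807 of all 8707 genes were higher in that comparison, a larger share than that of the members. At day 5, upper quartile scaling gave 24 higher and 3 lower calls and a median of 0.28, against 0.22 for all genes. The 5 lower calls of the difference became 1 with upper quartile scaling, 2 without the 20 most abundant genes, 2 with only the groups compared, 0 with library size alone (median -0.05047) and 2 to 13 with 1 library left out. For tumour day 8 against day 5 the 14 lower calls became 22 without the 20 most abundant genes, 6 without the filter, 5 without the 3 libraries and 4 to 20 with 1 library left out. With library size alone that comparison had 0 lower and 6 higher calls and a median of 0.15, and mRpL39 (0.06251), mRpS29 (0.08095) and mRpS22 (0.09673) were above 0. Library size alone also gave medians of -0.68 for tumour day 5 against day 4 and 0.12 for day 11 against day 8. TMM factors differ between ages, and library size alone leaves out that correction; the cause of the other changes was not tested. Of 24 correlations between same-numbered libraries 9 were over 0.1, and all ran from -0.30 to 0.52. So few pairs cannot settle whether the replicate numbers mark a shared batch. A replicate block gave 66 and 69 lower calls from day 4 to day 5 in controls and with tumours, and 19 higher calls at day 4. Of 37 named calls, DESeq2 lost 3, the block 3, RLE scaling 1 and scaling without the 20 most abundant genes 5. Upper quartile scaling lost 7, leaving out the 3 libraries 7, testing unfiltered genes 9 and fitting only the groups compared 11. With library size alone 14 were kept, 20 were lost and 3 changed sign. Depth limits members such as mRpL34, with 6 to 79 counts per library, and mRpL53 at 0.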
